A study of Mus musculus with 6 samples.

Results

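The genes described here were 10 targets of the ATF6 and XBP1 arms of the endoplasmic reticulum (ER) unfolded protein response, taken by name from the gene tables: Xbp1, Hspa5, Hsp90b1, Hyou1, Dnajb9, Sdf2l1, Pdia4, Herpud1, Creld2 and Manf. All 10 were found among the 24848 genes of the tables, and all 10 were among the 15848 genes expressed highly enough to be tested. Their mRNA was counted in brains of mouse embryos at E14.5, 3 labelled KO (knockout, here of E4f1) and 3 labelled WT (wild type). E4F1 is a zinc finger transcription factor. The labels give neither the E4f1 allele nor the cells that carry the deletion, and name no strain, litter or sex. Each library carries its own number in the labels. The deposited expected counts summed to between 42113465 and 74064707 read pairs per library. E4f1 itself stood at 7.12, 7.01 and 6.92 CPM in the KO libraries, against 20.7, 21.6 and 21.5 CPM in the WT libraries, CPM being counts brought to a common library total.

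The unfolded protein response is the signalling that cells switch on when unfolded proteins build up in the ER. Its sensors are IRE1 (gene Ern1), which splices the Xbp1 mRNA so that it codes for an active transcription factor, ATF6, which is cut in the Golgi to release a transcription factor, and PERK (gene Eif2ak3), a kinase of the initiation factor eIF2 alpha that raises translation of ATF4. ATF6 and spliced XBP1 bind ER stress elements in the promoters of ER chaperones, folding enzymes and genes of ER-associated degradation. ATF4 binds composite C/EBP-ATF sites, and it is also induced by kinases that respond to amino acid shortage, heme shortage or mitochondrial stress.

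RefSeq promoter windows, from 250 bases before to 50 bases after the start site on GRCm38.p6, were found for 8 of the 10 genes, the exceptions being Hyou1 and Manf. Those of Herpud1, the gene whose level changed most, and of Hspa5, the main chaperone, are shown whole because they hold different motifs. Each window was searched on both strands for the ER stress element ERSE (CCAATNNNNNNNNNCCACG), for ERSE-II (ATTGGNCCACG), for the core of the unfolded protein response element (TGACGTGG) and for the C/EBP-ATF composite site (TTNCATCA). Capitals below mark the fixed letters of a match. The window of Herpud1 (chr8:94386179-94386478, plus strand) held ERSE-II from -52 to -42 and the composite site from -112 to -105, and that of Hspa5 (chr2:34771840-34772139, plus strand) held 1 ERSE from -65 to -47.
Herpud1: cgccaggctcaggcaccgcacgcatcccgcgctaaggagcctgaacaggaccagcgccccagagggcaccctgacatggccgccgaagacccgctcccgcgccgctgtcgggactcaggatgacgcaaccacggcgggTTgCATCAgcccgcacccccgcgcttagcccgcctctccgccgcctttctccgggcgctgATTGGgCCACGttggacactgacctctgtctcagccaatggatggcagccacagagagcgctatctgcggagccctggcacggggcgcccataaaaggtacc
Hspa5: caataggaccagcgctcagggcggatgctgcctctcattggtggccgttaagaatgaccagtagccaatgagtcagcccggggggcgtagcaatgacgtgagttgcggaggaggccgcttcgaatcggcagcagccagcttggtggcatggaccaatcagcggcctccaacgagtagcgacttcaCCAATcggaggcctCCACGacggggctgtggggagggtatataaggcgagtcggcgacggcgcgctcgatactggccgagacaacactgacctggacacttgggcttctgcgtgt

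Hsp90b1 and Creld2 also held ERSE, Hsp90b1 from -212 to -194 and, on the other strand, from -107 to -89, and Creld2 on the other strand from -126 to -108. Each match is written here along its own strand.
Hspa5: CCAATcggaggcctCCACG
Hsp90b1, distal: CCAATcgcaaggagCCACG
Hsp90b1, proximal: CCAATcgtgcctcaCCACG
Creld2: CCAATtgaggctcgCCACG
Thus 3 of the 8 genes held ERSE, 1 held ERSE-II, 1 held the composite site and 0 held the core element, and the windows of Xbp1, Dnajb9, Sdf2l1 and Pdia4 held none of these letters. Only exact matches were sought. The end of the Pdia4 window was found in 0 of its 2 GENCODE transcripts, so its start site stays uncertain. Of all 32851 windows in the table, 0.119% held ERSE, 0.0365% ERSE-II, 0.676% the core element and 3.97% the composite site. Among 14 genes of the ATF4 branch, 6 had a window with the composite site and 0 had one with ERSE or ERSE-II. The motifs do not overlap each other in these windows, and a match is a description of letters and not a measured binding site.

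Of the 10 genes, edgeR called Herpud1 alone higher in KO, by 1.67-fold, and none lower. DESeq2 also called Pdia4 and Xbp1 higher (adjusted p = 0.0137 and 0.0173) and none lower. Herpud1 encodes an ER membrane protein of the HRD1 ubiquitin ligase complex, which marks misfolded ER proteins for degradation (chromosome 8, 94386429 to 94395371, GRCm38). Herpud1 had 42.8, 39.0 and 39.4 CPM in KO 1 to KO 3, against 23.9, 25.0 and 23.6 CPM in WT 1 to WT 3. Every KO library was well above every WT library, and the values rest on 2012 to 3063 expected counts per KO library and 1026 to 1783 per WT library. The log2 fold change, KO minus WT, was 0.74 ± 0.07 (SE, n = 3 per group, edgeR adjusted p = 0.00914), with a 95% interval of 0.57 to 0.91. By edgeR at an adjusted p below 0.05, 0.511% of all tested genes were called higher and 0.492% lower in KO. Without KO 1, WT 1 or WT 3 the log2 fold change was 0.70, 0.74 and 0.73 and the edgeR adjusted p 0.0863, 0.0522 and 0.0684. Without KO 2, KO 3 or WT 2 it was 0.77, 0.76 and 0.77 and the edgeR adjusted p 0.0423, 0.0428 and 0.0314. The fold thus hardly moved. Over all genes the calls fell from 159 to 36, 63 and 52 without KO 1, WT 1 or WT 3. They fell to 71, 69 and 82 without KO 2, KO 3 or WT 2. Why the call of Herpud1 was lost in some of these fits was not tested. In human cells, HERPUD1 is known to be induced both by the ER-specific arms and through PERK and ATF4, the gene having elements for each.

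**Figure D1:**
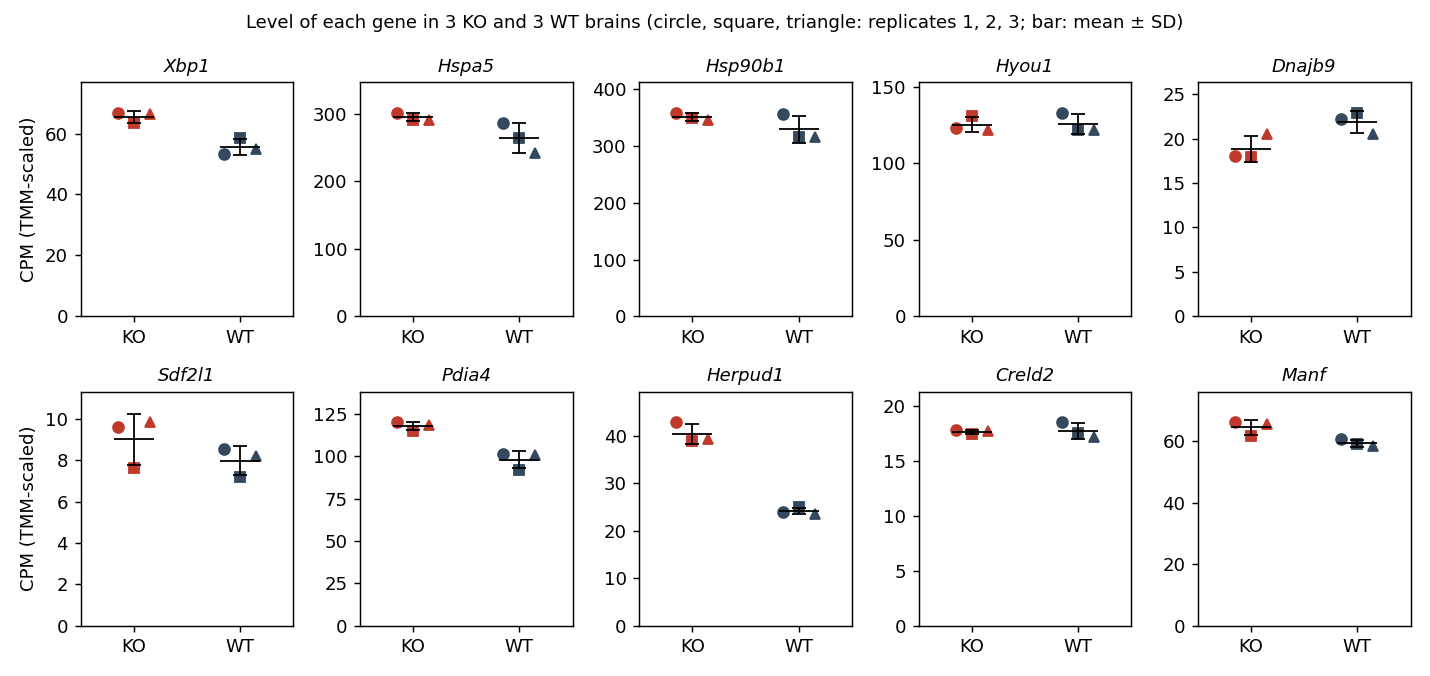
Level of each gene in CPM after TMM scaling (y axes from 0), with KO left and WT right; points are libraries and bars the mean ± SD of 3. Herpud1 stands at 39.0 to 42.8 CPM in KO and 23.6 to 25.0 CPM in WT, whereas the groups of Hyou1, Creld2, Hsp90b1 and Sdf2l1 overlap.

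The main ER chaperones stayed within a narrow range. Hspa5 encodes BiP, the Hsp70 chaperone of the ER lumen that also holds the sensors inactive (chromosome 2, 34772090 to 34776529), and is the standard readout of ER stress. It had 302, 292 and 291 CPM in KO, against 287, 264 and 241.6 CPM in WT. The KO values lay just above the highest WT value, while the WT libraries differed by more among themselves than KO did from WT 1. Its log2 fold change was 0.16 ± 0.08 (edgeR adjusted p = 0.318). The 95% interval of this fit ran from -0.03 to 0.35, its upper end being a 1.27-fold rise. Over the 19 alternative fits described below the estimate itself ranged from 0.10 to 0.35.

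Hsp90b1, the Hsp90 paralog of the ER known as GRP94 (chromosome 10, 86690841 to 86705444), had 358, 350 and 346 CPM in KO, against 356, 316 and 316 CPM in WT. WT 1 lay among the KO libraries. The log2 fold change was 0.09 ± 0.07 (edgeR adjusted p = 0.502; 95% interval -0.08 to 0.27). Hyou1, a large Hsp70-like exchange factor of BiP (chromosome 9, 44379490 to 44392369), had 123, 131 and 122 CPM in KO, against 133, 122 and 122 CPM in WT. Its groups overlapped throughout, with a log2 fold change of -0.01 ± 0.06 (edgeR adjusted p = 0.964) whose interval ended at a 1.11-fold rise.

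The cochaperones and the disulfide isomerase differed in sign. Dnajb9, a DnaJ cochaperone that loads BiP onto IRE1 and is induced by XBP1 (chromosome 12, 44205897 to 44210068), was lower in every KO library, with 18.0, 18.0 and 20.5 CPM in KO, against 22.2, 22.9 and 20.5 CPM in WT; KO 3 and WT 3 differed by less than 0.1 CPM. Its log2 fold change was -0.22 ± 0.09 (edgeR adjusted p = 0.263), with a 95% interval from -0.44 to 0.00. Sdf2l1, a component of ER chaperone complexes (chromosome 16, 17130138 to 17132383), was the least abundant of the 10, with 9.61, 7.60 and 9.83 CPM in KO, against 8.53, 7.20 and 8.20 CPM in WT. Its groups overlapped, and with a log2 fold change of 0.18 ± 0.15 it had the widest interval of the 10, up to a 1.44-fold rise (edgeR adjusted p = 0.531). Pdia4, a protein disulfide isomerase (chromosome 6, 47796141 to 47813512), had 120, 115 and 119 CPM in KO, against 102, 92.2 and 101 CPM in WT. The groups were apart, but the log2 fold change of 0.27 ± 0.06 did not pass the edgeR test (adjusted p = 0.113; 95% interval 0.11 to 0.42).

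Xbp1, the transcription factor of the IRE1 arm and itself a target of ATF6 (chromosome 11, 5520641 to 5525993), had 66.8, 63.3 and 66.4 CPM in KO, against 53.4, 58.6 and 54.8 CPM in WT. Here too the groups were apart and the test was not passed, with a log2 fold change of 0.24 ± 0.06 (edgeR adjusted p = 0.140; 95% interval 0.08 to 0.39). These counts are for the whole gene and do not separate the mRNA spliced by IRE1 from the unspliced one, so the activity of XBP1 was not measured.

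The members that are secreted under ER stress did not pass the test. Creld2 (chromosome 15, 88819646 to 88826681) had 17.8, 17.4 and 17.7 CPM in KO, against 18.5, 17.5 and 17.1 CPM in WT. The KO values are the tightest of the 10, with a coefficient of variation of 1.10% in KO and 4.04% in WT. The log2 fold change was -0.01 ± 0.08 (edgeR adjusted p = 0.974), with a 95% interval that ended at a 1.13-fold rise. Manf, a neurotrophic factor that is held in the ER by BiP (chromosome 9, 106888753 to 106891938), had 66.2, 61.7 and 65.7 CPM in KO, against 60.6, 59.1 and 58.4 CPM in WT, and a log2 fold change of 0.12 ± 0.06 (edgeR adjusted p = 0.322). In GENCODE M21 exons of Manf share 146 bases with Dcaf1 and 166 bases with 4930524O07Rik on the opposite strand. Exons of Hsp90b1 share 270 bases with the transcribed pseudogene 1810014B01Rik, also on the opposite strand. The strand setting of the counting is not given in the sources used here. On the same strand, exons of Hsp90b1 share 133 bases with Gm25745 and 84 with Gm15344. Exons of Manf share 14 bases with Rbm15b, and those of Pdia4 14 with Mir704, again on the same strand.

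**Figure D2:**
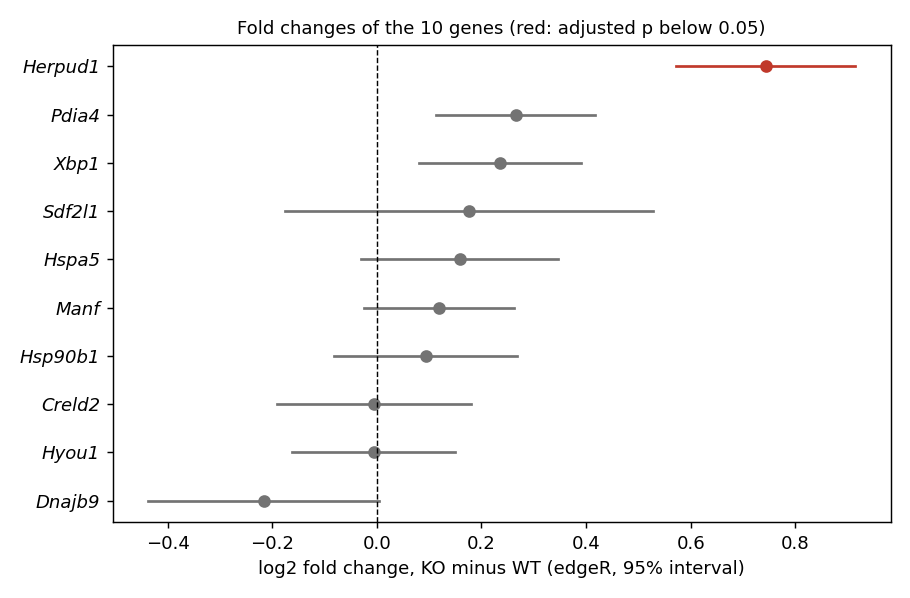
Log2 fold change, KO minus WT, of each of the 10 genes (points) with its 95% interval from edgeR (lines), Herpud1, the only one with an adjusted p below 0.05, in red. Its interval begins at 0.57, above the upper end of every other interval, the highest of which is 0.53 for Sdf2l1.

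Set side by side, the 9 genes other than Herpud1 had log2 fold changes between -0.22 and 0.27, with a median of 0.12, against a median of -0.001 over all tested genes. The 95% interval of each of the 9, which is not adjusted for the number of genes, ended below a 1.44-fold rise or at it, whereas that of Herpud1 began at 1.49-fold. At an unadjusted p below 0.05, 3 of the 10 were higher in KO (Herpud1, Pdia4 and Xbp1) and 0 lower, against 10.3% and 9.31% of all tested genes. DESeq2 called the same 3 higher (adjusted p = 6.52e-16 for Herpud1, 0.0137 for Pdia4 and 0.0173 for Xbp1) and 0 lower, against 5.44% and 4.79% of genes. Without overlap between the groups, 5 were higher (Herpud1, Pdia4, Xbp1, Hspa5 and Manf) and 1 was lower (Dnajb9), against 14.6% and 13.0% of all tested genes. Fold changes were positive for 7 of the 10 after TMM scaling and for 9 when libraries were scaled by their totals, where Hyou1 and Creld2 turned positive. KO 1 was the highest library for 6 of the 10 genes, and WT 3 the lowest for 4.

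Per transcript length, in TPM (levels corrected for transcript length and brought to a common total), Hsp90b1 and Hspa5 were far above the rest in both groups, at 343 ± 11.3 and 315 ± 10.2 TPM in KO, against 327 ± 23.4 and 286 ± 25.0 TPM in WT (mean ± SD, n = 3 each). In KO, Pdia4 followed at 129 ± 3.57 TPM, then Manf and Xbp1 at 80.5 ± 3.13 and 80.1 ± 2.48 TPM and Hyou1 at 73.7 ± 3.33 TPM, of which Manf and Xbp1 did not differ beyond their spread. Herpud1 stood next at 57.7 ± 3.62 TPM in KO, against 35.0 ± 1.13 TPM in WT. In KO it was thus above Creld2 (38.3 ± 0.624 TPM), while in WT it was below Creld2 (39.0 ± 1.61 TPM) and within the spread of Dnajb9 (33.5 ± 1.95 TPM). Dnajb9 and Sdf2l1 came last in KO, at 28.3 ± 1.77 and 25.2 ± 3.31 TPM, and did not differ beyond their spread. The 10 genes together amounted to 1208, 1156 and 1147 TPM in KO, against 1134, 1055 and 1025 TPM in WT, a ratio of the means of 1.09, and of 1.07 without Herpud1.

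A ratio between genes within 1 library does not depend on how libraries are scaled. Relative to Hspa5, Herpud1 stood at -2.82, -2.90 and -2.88 on the log2 scale in KO, against -3.58, -3.40 and -3.36 in WT, a difference of 0.58 between the group means. Hyou1, Dnajb9 and Creld2 were lower relative to Hspa5 in every KO library than in any WT library, with mean differences of -0.17, -0.38 and -0.17. The other 5 genes overlapped between the groups in this ratio. Of all tested genes, 5.16% were higher relative to Hspa5 in KO without overlap and 24.7% lower. These ratios were not tested.

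**Figure D3:**
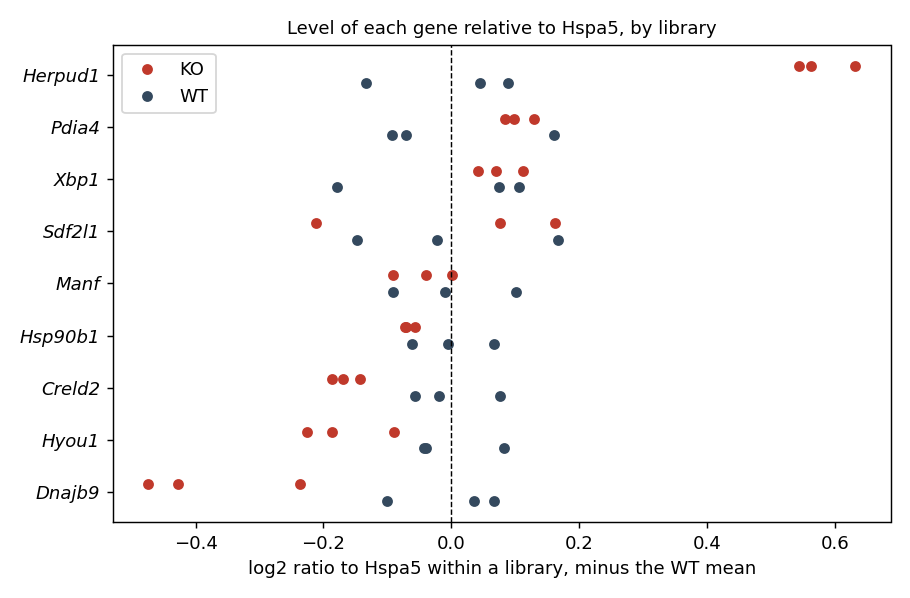
Log2 ratio of each gene to Hspa5 within a library, minus the WT mean of that ratio (x axis), with 3 KO points above 3 WT points for each gene. Herpud1 lies near 0.6 in the KO libraries and near 0 in WT, and Dnajb9, Hyou1 and Creld2 lie left of their WT points.

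The rest of the pathway was read from 5 lists written from general knowledge, which hold 69 tested genes besides the 10. By edgeR, 0 of the 69 were called, and limma-voom also called 0. At an unadjusted p below 0.05, 4 were higher and 6 lower, which is no larger a share than the 10.3% and 9.31% of all tested genes. Among 19 other chaperones and folding enzymes the median log2 fold change was 0.05, with 0.15 for Calr (calreticulin), 0.05 for Pdia3 and 0.16 for Pdia6. Among 16 other genes of ER-associated degradation, the process Herpud1 belongs to, the median was -0.04, with 0.04 for Syvn1, the HRD1 ligase, -0.17 for its partner Sel1l, 0.16 for the mannosidase-like Edem1 and 0.02 for the Herpud1 paralog Herpud2. Among 22 genes of the translocon, signal peptidase, glycosylation and transport out of the ER the median was 0.07, against -0.001 over all tested genes.

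DESeq2 called 1 of the 69 genes higher and 3 lower. For the 5 lists together this share is no larger than that over all genes in the DESeq2 fit (5.44% higher and 4.79% lower). Of the 16 other genes of ER-associated degradation alone, DESeq2 called 2 lower and 0 higher. At an unadjusted edgeR p below 0.05, 4 of these 16 were lower and 0 higher, against 9.31% and 10.3% of all tested genes. The list was not tested as a set. The 4 genes called by DESeq2 are named here after their values were seen. Sil1, another exchange factor of BiP, was higher, with 13.7, 13.1 and 13.1 CPM in KO, against 10.2, 9.66 and 9.17 CPM in WT (log2 fold change 0.46 ± 0.09 and adjusted p = 0.0882 by edgeR, DESeq2 adjusted p = 3.32e-04). Os9 and Edem3, which handle glycoproteins bound for degradation, were lower, with log2 fold changes of -0.24 ± 0.06 and -0.28 ± 0.07 (edgeR adjusted p = 0.119 and 0.120, DESeq2 adjusted p = 0.00174 and 0.00981). The fourth was Bloc1s1, a lysosome positioning gene whose mRNA is cut by active IRE1 in cultured cells. Bloc1s1 had 16.7, 17.6 and 16.9 CPM in KO, against 23.5, 22.3 and 21.0 CPM in WT, with no overlap. Its log2 fold change was -0.38 ± 0.08 (edgeR adjusted p = 0.0886, DESeq2 adjusted p = 5.65e-04; 0.0458 by limma on log2(TPM + 1)). The other 5 transcripts of that list (Hgsnat, Scara3, Pdgfrb, Col6a1 and Pmp22) had positive log2 fold changes, of 0.19 to 0.32, and none passed a test. Without KO 3, the library with the highest sum of meningeal markers, 2 of the 6 transcripts on that list had positive fold changes, and the list's median was -0.12, against 0.21 with all libraries.

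The sensors did not pass the test either. Ern1 (IRE1) had 15.6, 15.8 and 15.5 CPM in KO, against 18.9, 17.6 and 19.4 CPM in WT, which is lower without overlap (log2 fold change -0.25 ± 0.08, edgeR adjusted p = 0.177). Eif2ak3 (PERK) had 48.1, 45.0 and 49.1 CPM in KO, against 41.7, 43.7 and 42.8 CPM in WT (0.15 ± 0.06, adjusted p = 0.268), and Atf6 had a log2 fold change of -0.02 ± 0.07 (adjusted p = 0.871). These are mRNA levels, and the activity of the sensors was not measured.

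Of the 14 tested genes of the ATF4 and CHOP branch, edgeR called 10 higher and none lower, against 0.511% and 0.492% of all tested genes. Their median log2 fold change was 1.91. The count was 4 without KO 1 and 5 without WT 3. It was 0 in the fits described below with 4 libraries alone or with a midbrain score, where no gene at all was called. The genes with the largest changes were Trib3 (log2 fold change 4.13 ± 0.38), Chac1 (2.99 ± 0.21), Sesn2 (2.24 ± 0.09) and Stc2 (2.16 ± 0.19). Ddit3, the gene of CHOP, had 16.2, 13.9 and 13.6 CPM in KO, against 6.22, 6.20 and 6.44 CPM in WT (1.22 ± 0.11, edgeR adjusted p = 0.00751). Atf4, which is regulated mainly in translation, had a log2 fold change of 0.57 ± 0.10 (edgeR adjusted p = 0.0588). Herpud1, at 0.74, lay within the range of this list (0.45 to 4.13), and none of the other 9 genes did. All 14 genes of the list had positive fold changes, and the list was chosen with earlier results of these data known. Lying within this wide range therefore does not assign a gene to the branch, and what raised Herpud1 was not tested.

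**Figure D4:**
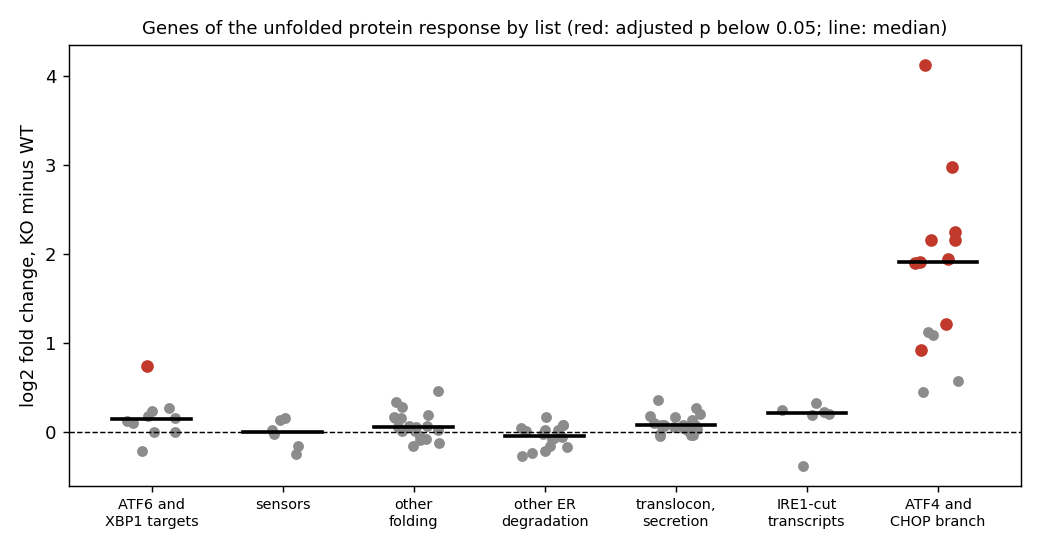
Log2 fold change, KO minus WT (y axis), of the 10 ATF6 and XBP1 targets and of 6 further lists of the response; points are genes, red where the edgeR adjusted p was below 0.05, and lines are medians. Red points stand in the ATF4 and CHOP list (10 of 14) and at Herpud1.

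Among 11426 genes with at least 5 CPM on average, predicted models left out, the profile nearest to that of Herpud1 over the 6 libraries was that of Cars, the cysteinyl-tRNA synthetase, at a root mean square distance of 0.048 on the log2 scale. Gpt2, Narfl, Yars and Stard5 followed at 0.073, 0.074, 0.077 and 0.080. Nearest to the mean profile of the 10 genes, among 11417 genes, were Nprl3, Ccdc130, Ntmt1, Rufy1 and C1qbp, at distances of 0.017 to 0.023 and with log2 fold changes of 0.13 to 0.18. None of these 5 was called (edgeR adjusted p between 0.192 and 0.461).

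Summed levels of cell type markers also varied between the libraries, and in bulk tissue fewer cells of a type cannot be told from less RNA per cell. No marker found in the tables was at 0 TPM in any library. The 7 neuronal and 8 radial glial markers summed to 3523 to 4510 and 2223 to 2393 TPM in KO, against 5132 to 5977 and 2516 to 2934 TPM in WT. The radial glial sum did not follow most of its genes, since 5 of the 8 had positive log2 fold changes (median 0.04) and Fabp7 (-0.58 ± 0.09, edgeR adjusted p = 0.0555) was the only one lower at an unadjusted p below 0.05. Microglial markers (9 genes) summed to 209 to 279 TPM in KO, against 108 to 183 TPM in WT, and endothelial ones (7 genes) to 262 to 359 TPM in KO, against 194 to 246 TPM in WT. Meningeal markers (8 genes) ranged from 254 to 2500 TPM in KO, against 318 to 1312 TPM in WT, choroid plexus markers (6 genes) from 422 to 898 TPM in KO, against 783 to 971 TPM in WT, erythroid genes (7 genes) from 4439 to 6261 TPM in KO, against 1978 to 5214 TPM in WT, and 4 plasma cell genes from 27.6 to 35.4 TPM in KO, against 22.5 to 27.98 TPM in WT. The midbrain genes En1, En2 and Pax5 summed to 0.380 to 1.60 TPM in KO, against 3.45 to 70.3 TPM in WT. With a score of these 3 genes as a covariate Herpud1 kept its log2 fold change (0.73) but not its call (edgeR adjusted p = 0.902). The score was lower in every KO library (-3.39, -1.47 and -2.19) than in any WT library (4.12, 3.18 and -0.24). This fit therefore cannot well separate the score from the genotype, and E4f1 lost its call in it too (edgeR adjusted p = 0.2445). In a fit of the 4 libraries numbered close together in the labels (KO 1, KO 2, WT 1 and WT 2) it was 0.75 (adjusted p = 0.247). No gene at all was called in either of these fits. The part of tissue makeup in the other values was not tested.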

How the data were processed

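Per the submitters' processing notes, reads went through FastQC, Trimmomatic, STAR 2.5.3a and RSEM 1.2.28, with mm10 and GRCm38 as builds, in an order and with settings that the sources used here do not give. The authors deposited, per library, an expected count (RSEM's estimate of read pairs per gene), a TPM and an FPKM value (the deposited FPKM was not used), and a transcript length. Expected counts were rounded and fitted with edgeR (version 4.0.16): filterByExpr, TMM scaling and a robust, two-sided quasi-likelihood test of KO against WT over 15848 genes, with Benjamini-Hochberg adjustment and a threshold of 0.05. SE and 95% intervals follow from its F statistic. CPM is a count scaled to a common library total after TMM scaling, and levels between genes use the deposited TPM values. Alternatives were DESeq2 (version 1.42.0), limma (version 3.58.1) with voom or on log2(TPM + 1) and log2(TPM + 0.1), other scalings, filters, blocks and left-out libraries. Pairs of libraries within a group differed far beyond sampling noise (chi-square per degree of freedom 43.5 to 168), so all 6 counted as separate samples. Coordinates and promoter windows are RefSeq's on GRCm38.p6. Named are the 10 genes, the sensors Ern1, Eif2ak3 and Atf6, the 4 largest called changes of each list, the 5 nearest profiles and E4f1; other names were picked with their values in view. The 10 genes and all lists were chosen with earlier results of these data known. With 3 brains per group an exact permutation of 1 value cannot go below 0.1, so tests rest on edgeR's spread shared across genes.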

Additional observations from a re-analysis of the deposited data

How the results depend on the processing

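The 10 genes gave 1 call in the edgeR fit and in 12 of 19 alternatives, among them limma-voom, both limma fits on log2 TPM and every other scaling and filter. DESeq2 called 3, and the replicate block, KO 1, KO 2, WT 1 and WT 2 alone, and the midbrain score as a covariate called 0; leaving out 1 library gave 0 to 1. The log2 fold change of Herpud1 stayed between 0.70 and 0.81 over the 19 alternatives, with 13 calls, and no called value changed sign. Over the same alternatives Hspa5 ranged from 0.10 to 0.35, Hyou1 from -0.04 to 0.11 and Dnajb9 from -0.32 to -0.08, and none of these 3 was called. KO and WT share replicate numbers. The deviations of same-numbered libraries correlated at 0.13, 0.17 and 0.00, and those of differently numbered ones at -0.24 to 0.10. These values do not settle whether the numbers pair brains, and the main fit did not pair them. With the replicate block Herpud1 had 0.74 (edgeR adjusted p = 0.0502), the ATF4 list 5 calls and all genes 66. The 69 genes of the wider lists had 0 calls, against 4 by DESeq2 and 1 by limma on log2 TPM with either pseudocount, and 0 in every fit that left out 1 library. The ATF4 list had 10 calls, 0 with the 4 libraries alone and 0 with the midbrain score, and 4 to 9 when 1 library was left out. All genes gave 159 calls, 1525 by DESeq2, 245 and 248 by limma on log2 TPM (pseudocounts 1 and 0.1), 0 with the 4 libraries, 0 with the midbrain score, and 36 to 82 without 1 library. Scaling by library totals moved the median of all genes to 0.06 and split the calls into 123 higher and 63 lower, against 81 and 78. The planned reading of protein tails was not run. At this depth Sdf2l1, with 296 to 687 expected counts per library, was the least precise of the 10.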

Other observations

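RSEM's transcript length, an average weighted by the abundance of a gene's transcripts, lay outside the comparisons above. Hspa5 is listed with 2 transcripts, and its weighted length was 2542, 2541 and 2541 bases in KO, against 2547, 2548 and 2548 bases in WT. Every KO library was below every WT library, and whether the mix of the 2 transcripts differs was not tested. Of 6550 tested genes with several transcripts, 19.0% had no overlap in this length, in one direction or the other. Xbp1, also listed with 2 transcripts, overlapped between the groups (2245.6 to 2246.2 bases in KO, against 2244.9 to 2246.7 bases in WT). Herpud1, the third gene with 2 transcripts, was listed at 1954.75 to 1954.78 bases in KO, against 1954.80 to 1954.82 bases in WT, without overlap but less than 0.1 bases apart. These gene tables do not give the level of each transcript.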
